A study of Mus musculus with 6 samples.

Results

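Collagens are the structural proteins of the extracellular matrix, and their genes were taken here as the protein-coding genes whose symbol reads Col, a number, a, a number. The rule found 44 genes among the 21887 protein-coding genes of the mouse annotation (RefSeq, GRCm38/mm10). By the protein they encode, 11 are fibrillar, 9 belong to basement membranes, 4 are transmembrane, 9 are fibril-associated, 3 form networks, 6 form the beaded filaments of type VI collagen, and 2, Col26a1 and Col28a1, fall outside these classes. Collagen genes are long: their median length was 114 kb, against 17.2 kb for all genes, and 26 of the 44 exceeded 100 kb.

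The series profiled chromatin from mouse gastric corpus epithelial cells, detached with EDTA and then fixed and frozen, with no culture step. The tumor group carried CluCreERT2, R26rtTA and HA-Yap+, that is, a tamoxifen-activated Cre recombinase at Clu, a reverse tetracycline transactivator at Rosa26 and an inducible HA-tagged Yap; the normal group was wild type (WT). Per the labels' protocols, mice of the series were given 2 mg tamoxifen on 5 days and doxycycline food for the last 14 days. YAP was immunoprecipitated in 2 tumor and 2 normal libraries, and acetylated histone H3 lysine 27 (H3K27ac) in 1 tumor and 1 normal library. The transgene can be induced only in cells that use the Clu promoter and in their descendants, and recombined and unrecombined cells cannot be told apart in these bulk lists. Whether the libraries of a group represent separate animals is not stated in the labels, so a p-value here measures no more than how far these samples differ, and that spread may be technical.

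Collagen chains fold into triple helices in the endoplasmic reticulum and are secreted. Fibrillar collagens build the tension-bearing fibers of connective tissue and are made mostly by fibroblasts, basement-membrane collagens form the sheet on which epithelia and vessels rest, and transmembrane collagens such as collagen XVII fasten epithelial cells to that sheet. YAP is a transcriptional coactivator that reaches DNA through TEAD transcription factors, often at enhancers, and it responds to the stiffness of the matrix. H3K27ac marks active promoters and enhancers.

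The values are positions of peak summits, each 1 bp wide and called per library by the authors, with a score that is the authors' −log10 of either p or q. A summit was assigned to the protein-coding gene whose start or end was nearest, within 50 kb. The YAP lists held 38268 summits (tumor 1), 53904 (tumor 2), 1654 (normal 1) and 2141 (normal 2) on the main chromosomes, and the H3K27ac lists 66896 (tumor) and 22574 (normal). Sequencing depth is unknown, so differences in the number of summits can also follow depth, and lists were therefore compared at equal length as well. The peak names go against the labels for 2 YAP libraries: the library labelled normal 2 carries the word Clu_Yap, which the tumor H3K27ac library also carries, and the library labelled tumor 1 carries the word cre, as the normal H3K27ac library does. Libraries are called by their labels below, and the main counts that rest on these 2 libraries are also given with tumor 2 alone or with the libraries regrouped. The epithelial label was checked on 6 epithelial markers. All of them carried H3K27ac within 1 kb of a gene end in the tumor library, against 64.5% of all genes, and in the normal library, against 48.0%. This check cannot show that no other cells were present.

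YAP summits at collagen genes were found almost wholly in the libraries labelled tumor. The 44 genes together held 57 YAP summits in tumor 1 and 111 in tumor 2, against 2 in normal 1 and 0 in normal 2. Every tumor value lay above every normal value. The mean was 84.0 ± 38.2 summits in tumor and 1.0 ± 1.41 in normal (SD, n = 2 each), and the ratio of geometric means of (summits + 1) was 46.5-fold, a log2 difference of 5.54. With 2 libraries per group an exact permutation test cannot go below p = 0.33 (two-sided), and that is the value it gave. As a share of each list, collagen genes took 0.149% of the summits in tumor 1 (Wilson 95% interval 0.115 to 0.193) and 0.206% in tumor 2 (0.171 to 0.248), against 0.121% in normal 1 (0.0332 to 0.44) and 0.0% in normal 2 (0.0 to 0.179). These intervals overlap between the tumor and the normal libraries. When libraries were grouped by the words in their peak names, the log2 difference was -0.32 (exact permutation p = 1.0, n = 2 per group).

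At equal length, the collagen signal came down to 1 gene. Among the best-scored 1654 summits of each list, collagen genes held 6 in tumor 1 and 4 in tumor 2, against 2 in normal 1 and 0 in normal 2 (log2 difference 1.77, exact permutation p = 0.33, n = 2 per group). Col19a1, a minor fibril-associated collagen, held all of these tumor summits except 1 in tumor 1, which lay at Col18a1. No control library or list of regions with excess signal was used here, so whether the Col19a1 summits reflect YAP binding was not tested. Without Col19a1 the numbers were 1 in tumor 1 and 0 in tumor 2, against 2 in normal 1 and 0 in normal 2, and the log2 difference was -0.29 (exact permutation p = 1.0, n = 2 per group). Over the full lists, leaving out Col19a1 gave 52 and 106 summits in tumor 1 and tumor 2 and a log2 difference of 5.44.

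The 2 normal summits at collagen genes were both in normal 1, at 2 of the 44 genes (4.55%, against 2.79% of all genes), and none was in normal 2, which had a summit at 5.98% of all genes. One lay at chromosome 10, position 34354462, 35519 bp from the nearer end of Col10a1, which encodes the collagen of hypertrophic cartilage, and a tumor 1 summit lay 14 bp from it. The other lay at chromosome 3, position 130141131, 39227 bp outside Col25a1, a transmembrane collagen of neurons, with no tumor summit within 45 kb.

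A YAP site of both tumor libraries was defined as a tumor 1 summit matched one to one to the nearest tumor 2 summit within 200 bp. The position of a site is the midpoint of its 2 summits, and distances of sites are measured from that midpoint. The collagen genes held 47 such sites, at 25 of the 44 genes (56.8%), against 60.0% of all protein-coding genes, so the share of collagen genes with a site was close to the background. With summits of tumor 2 alone, 33 collagen genes had one (75.0%, against 70.8% of all genes), and with tumor 1 alone 27 (61.4%, against 66.3%). Per megabase of sequence assigned to them, collagen genes had 9.57 sites, against 18.9 for all genes. Among genes longer than 100 kb, 15 of 26 collagen genes had a site (57.7%), against 71.1% of all genes of that length, and in tumor 2 alone 19 had a summit (73.1%, against 82.1%). Among the 18 shorter collagen genes the share was 55.6%, against 58.7%. Within 10 kb of a gene end, 12 collagen genes had a site (27.3%, against 54.5% of all genes). With a score of at least 5 in both libraries 18 had one (40.9%, against 53.9%), and with a score of at least 10 they were 9 (20.5%, against 39.6%). Members with no YAP summit assigned to them in either tumor library numbered 10, namely Col2a1, Col3a1, Col5a2, Col11a1, Col24a1, Col4a6, Col7a1, Col25a1, Col9a3 and Col22a1. A further 7 had summits in tumor 2 but none in tumor 1, Col13a1 had a summit in tumor 1 but none in tumor 2, and Col6a5 had 1 in each with no pair within 200 bp. Summits inside a long gene but beyond the assignment distance from its ends were not counted for it. With summits inside a gene assigned to it, Col22a1 had 1 site of both tumor libraries. Under that rule Col5a1 had 2 sites in place of 1, Col4a3 3 in place of 2 and Col4a2 4 in place of 2. Col10a1 had 0 in place of 1, and the number of collagen genes with a site stayed at 25.

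**Figure D1:**
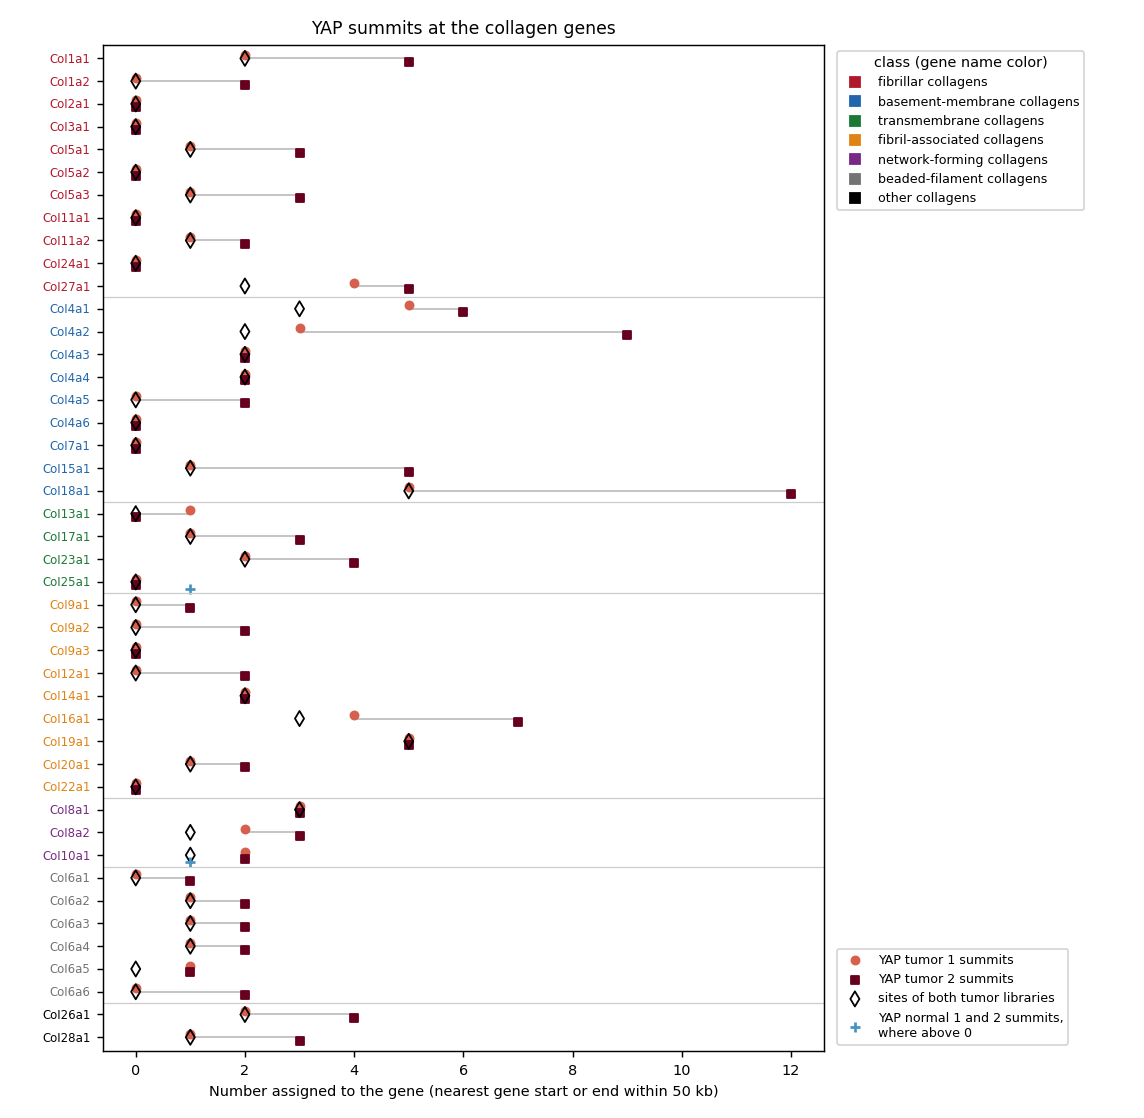
Number of YAP summits assigned to each of the 44 collagen genes (x axis) in tumor 1 (circles) and tumor 2 (squares), with the sites of both tumor libraries (diamonds) and any normal summits (plus signs); gene names are colored by class. Col18a1 had 5 and 12 tumor summits, and the 2 normal summits lay at Col25a1 and Col10a1.

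The classes differed in how densely YAP was found. Basement-membrane collagens had 15 sites at 6 of 9 genes (66.7%), which is 14.8 sites per megabase. Fibrillar collagens had 7 sites at 5 of 11 genes (45.5%), or 5.61 per megabase, and transmembrane collagens 3 sites at 2 of 4 genes (50.0%), or 5.93 per megabase. In single libraries the basement-membrane class again had the most of the 3, with 17.8 summits per megabase in tumor 1 and 37.6 in tumor 2. Fibrillar collagens had 7.21 in tumor 1 and 16.0 in tumor 2, and transmembrane collagens 7.91 and 13.8. All genes had 23.9 in tumor 1 and 33.4 in tumor 2, so the basement-membrane class lay below them in tumor 1 and above them in tumor 2. The network-forming class, with 27.6 in tumor 1 and 31.5 in tumor 2, went the other way. By sites of both tumor libraries, all classes but the network-forming collagens lay below the 18.9 sites per megabase of all genes. The network-forming collagens had 5 sites at 3 of 3 genes and 19.7 per megabase. One of these 5, the site of Col10a1, lay inside another gene, Nt5dc1. With summits inside a gene assigned to it, Col10a1 had 0 sites. Sites of 1 gene are not independent of each other, and no test was made between the classes.

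**Figure D2:**
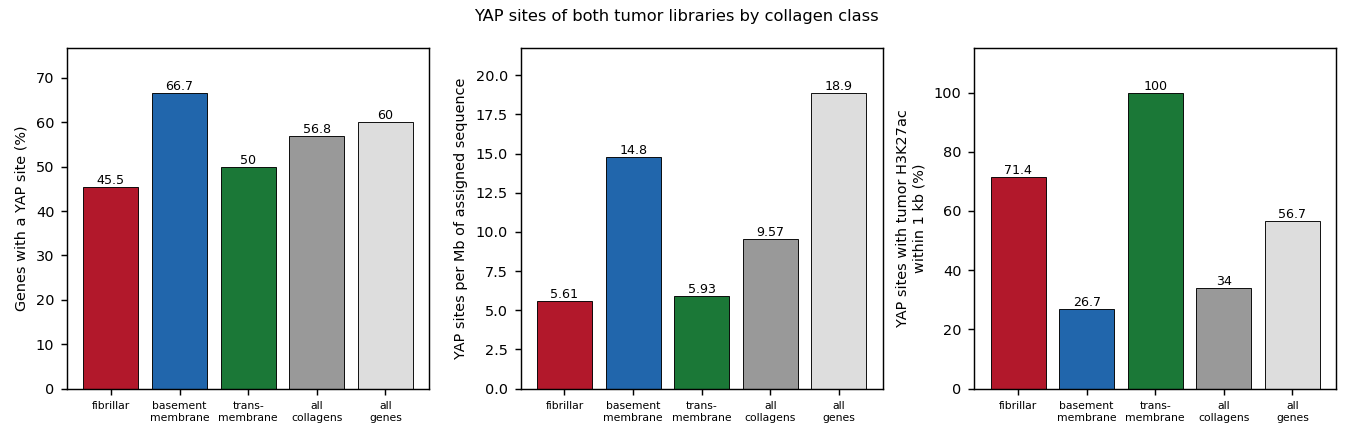
Share of genes with a YAP site of both tumor libraries (left, percent), sites per megabase of assigned sequence (middle) and share of sites with a tumor H3K27ac summit within 1 kb (right, percent), for 3 collagen classes, all 44 collagen genes and all protein-coding genes. Basement-membrane collagens have the most sites per megabase of the 3 classes (14.8) and the lowest share of sites with H3K27ac (26.7%).

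Among the fibrillar collagens, Col1a1, which encodes the main chain of type I collagen, had 2 YAP sites. It held 2 summits in tumor 1 and 5 in tumor 2, against 0 in normal 1 and 0 in normal 2. The stronger site lay at chromosome 11, position 94937104, 880 bp inside the gene, with scores of 12.1 in tumor 1 and 22.3 in tumor 2; the other lay 7392 bp outside it. Both sites had an H3K27ac summit within 1 kb in the tumor library (220 and 106 bp away) and in the normal library (618 and 118 bp away). Col1a2, which encodes the partner chain, had 2 summits in tumor 2, 4443 and 16301 bp outside the gene, and 0 in tumor 1. Col3a1, which encodes the type III collagen of hollow organs, had no YAP summit in any library.

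Col27a1, a minor fibrillar collagen known from cartilage, had 4 YAP summits in tumor 1 and 5 in tumor 2, against 0 in both normal libraries. Of its 2 sites of both tumor libraries, one lay 126 bp upstream of its annotated transcript start, with a tumor H3K27ac summit 334 bp away, and the other 92241 bp downstream inside the gene, with one 308 bp away; the nearest normal H3K27ac summits were 23823 and 95252 bp away. Col5a1, whose product starts and limits the width of type I fibrils, had a site 142 bp upstream of its start. Col5a3, a variant chain of type V collagen, had 1 site 10651 bp inside the gene, and Col11a2, a chain of the cartilage collagen XI, had 1 site 11032 bp outside it. The 3 last-named sites scored 3.94 to 5.52 in tumor 1 and 7.57 to 8.3 in tumor 2, all below the median of the 29492 sites of both tumor libraries, which was 8.39 in tumor 1 and 14.0 in tumor 2.

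Type IV collagen, the network former of every basement membrane, is encoded by 3 pairs of genes that lie head to head. Col4a1 and Col4a2, the chains found in nearly all basement membranes, overlap by 85 bp at their starts. Col4a1 had 5 and 6 YAP summits in tumor 1 and tumor 2 and 3 sites, and Col4a2 had 3 and 9 summits and 2 sites, while both genes had 0 summits in the 2 normal libraries. At their shared start each tumor library had a summit, 267 bp from the start of Col4a2 in tumor 1 and 29 bp in tumor 2; the pair lay more than 200 bp apart and so formed no site. The 5 sites of this pair of genes were spread over the bodies and flanks, between 16977 and 37367 bp from the nearer end, and scored 2.55 to 7.61 in tumor 1 and 4.32 to 11.6 in tumor 2. None of the 5 had an H3K27ac summit of the tumor or the normal library within 1 kb.

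Col4a3 and Col4a4, chains of specialised basement membranes such as that of the kidney glomerulus, overlap by 114 bp and had 2 sites each, with 2 summits per gene in both tumor libraries and 0 in both normal libraries. A site on each side of the shared start lay 135 bp outside Col4a3 and 247 bp outside Col4a4, and both had H3K27ac within 1 kb in the tumor library (335 and 160 bp) and in the normal library (385 and 110 bp). All 4 sites lay inside the partner gene, so which gene of the pair a site belongs to rests on distance alone. Col4a5 and Col4a6, on chromosome X, are separated by 1274 bp. Col4a5 had 2 YAP summits in tumor 2 and 0 in tumor 1, and Col4a6 had 0 in both.

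Col18a1, a proteoglycan of basement membranes whose end fragment is endostatin, had 5 YAP summits in tumor 1, as did Col4a1 and Col19a1, and 12 in tumor 2, the most of the 44 genes in that library, against 0 in both normal libraries. All 5 of its tumor 1 summits had a tumor 2 partner. The best of these sites lay at chromosome 10, position 77130719, 35811 bp inside the gene and 17014 bp upstream of an inner transcript start, with scores of 38.1 in tumor 1 (rank 606) and 40.9 in tumor 2 (rank 2065). Its nearest tumor H3K27ac summit was 6410 bp away. Of the 5 sites, 1 had a tumor H3K27ac summit within 1 kb, at 241 bp, and none had a normal one within 37 kb. Col15a1, the related collagen of vessel and muscle basement membranes, had 1 summit in tumor 1, 5 in tumor 2 and 1 site, with tumor H3K27ac 328 bp and normal H3K27ac 58669 bp away. Col7a1, which makes the anchoring fibrils below squamous epithelia, had no YAP summit in any library.

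The transmembrane collagens had 3 sites, each with a tumor H3K27ac summit within 1 kb and none with a normal one. Col17a1, the hemidesmosome collagen that anchors basal epithelial cells, had 1 YAP summit in tumor 1 and 3 in tumor 2, against 0 in both normal libraries. Its site lay at chromosome 19, position 47659091, 12750 bp inside the gene, with scores of 10.1 in tumor 1 and 14.6 in tumor 2, a tumor H3K27ac summit 337 bp away and the nearest normal one 72264 bp away. Col23a1, a collagen found in epithelia, had 2 summits in tumor 1 and 4 in tumor 2, and its sites lay 183 bp upstream of its transcript start and 249909 bp downstream of it. The distal site was the stronger, with scores of 16.4 in tumor 1 and 35.5 in tumor 2. Tumor H3K27ac summits lay 145 and 578 bp from the 2 sites, and the nearest normal ones 26307 and 44636 bp. Col13a1, a collagen of the neuromuscular junction, had 1 summit in tumor 1 with a score of 4.16 and 0 in tumor 2.

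**Figure D3:**
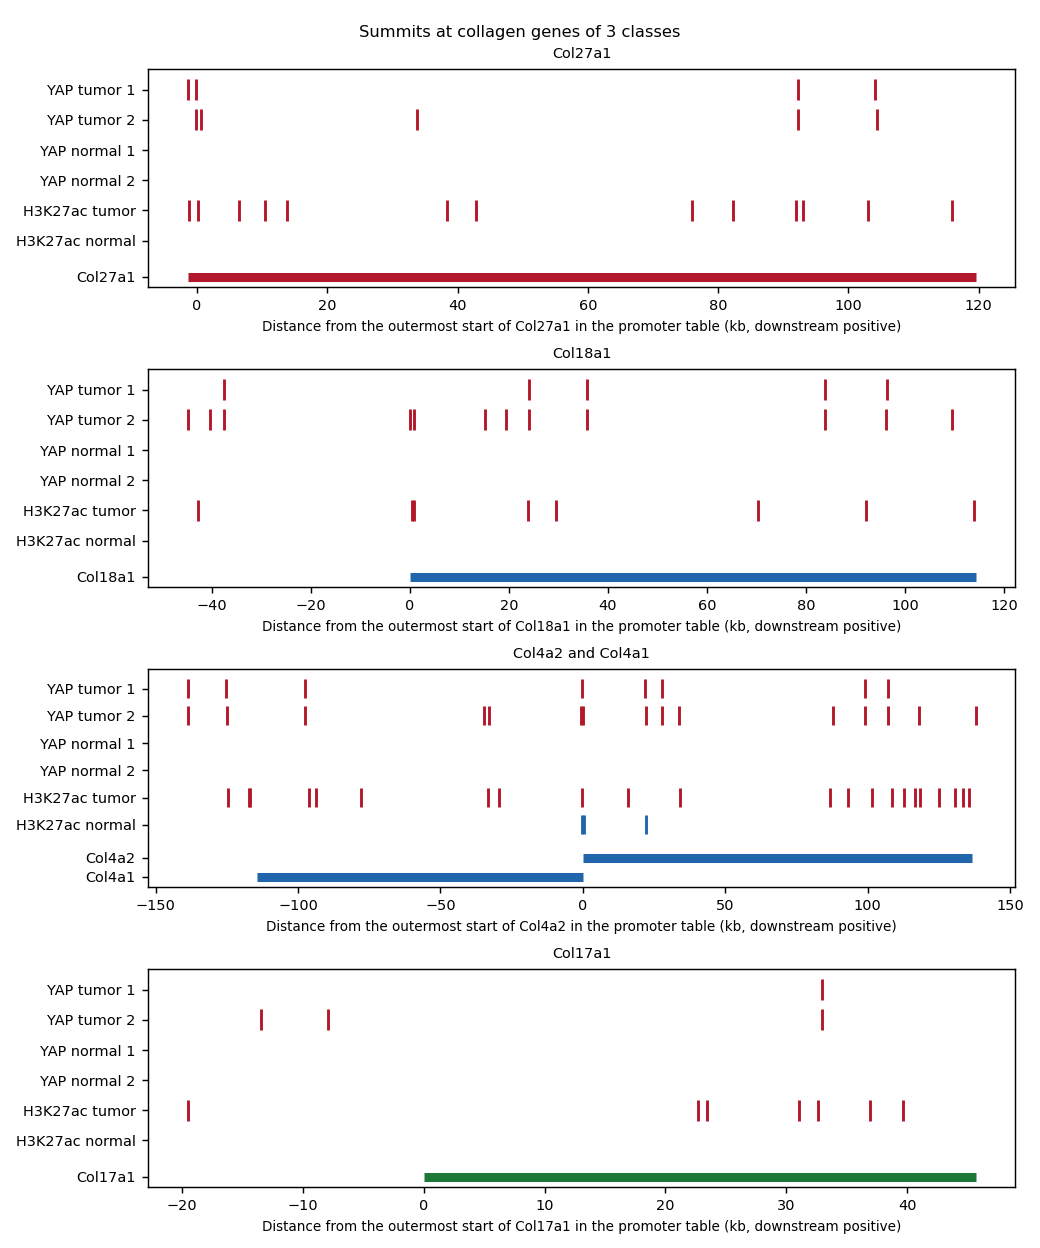
Summits of the 6 libraries assigned to Col27a1, Col18a1, Col4a2 with Col4a1, and Col17a1, drawn against the distance from the outermost start of the first-named gene in the promoter table (kb, downstream positive); each tick is 1 summit and the bars at the bottom are the genes. YAP ticks appear in the tumor libraries alone, and normal H3K27ac ticks at the shared start of Col4a1 and Col4a2 and 22 kb from it.

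In the other classes the sites were led by a dense group outside Col19a1. Its 5 sites fell within 3.43 kb, at chromosome 1, positions 24612500 to 24615927, 24578 to 28005 bp outside the gene. Their scores were 49.2 to 121 in tumor 1 and 5.61 to 128 in tumor 2, and no other collagen site exceeded 38.1 in tumor 1 or 40.9 in tumor 2. The nearest H3K27ac summit was at least 17099 bp away in the tumor library and at least 62925 bp in the normal library, and the nearest normal YAP summit over 1 Mb away. Excess signal in that region was not tested, for lack of a control library. Without Col19a1 the collagens had 42 sites, 8.82 per megabase, and the fibril-associated class 6 sites and 7.94 per megabase in place of 11 and 12.2.

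Col16a1, a fibril-associated collagen, had 4 summits in tumor 1 and 7 in tumor 2 and 3 sites. One of these sites had its midpoint 3 bp from the transcript start. Its tumor 1 summit lay 96 bp upstream of that start and its tumor 2 summit 91 bp downstream. H3K27ac lay 242 bp from the midpoint in the tumor library and 324 bp from it in the normal library. Col14a1, which binds the surface of type I fibrils, had 2 sites outside the gene, and Col20a1 had 1 inside it. Of the network-forming collagens, Col8a1 had 3 sites inside the gene, none with H3K27ac within 1 kb, and Col8a2 had 1 site with tumor H3K27ac 516 bp away. Col10a1 had 1 site 4171 bp outside the gene and inside Nt5dc1. Type VIII collagen lies below endothelia. In type VI collagen, which forms beaded microfibrils around cells, Col6a2, Col6a3 and Col6a4 had 1 site each, with scores no higher than 7.63 in tumor 1 and 11.03 in tumor 2. Col26a1 had 2 sites and Col28a1 had 1.

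Collagen sites lay far from gene ends, in genes with a median assigned span of 115 kb, against 46.5 kb for all genes. Distances were not compared among genes of like length, so the part of gene length in them was not tested. The median distance of collagen sites to the nearer end of the gene was 16977 bp, against 3580 bp for all assigned sites. Within 1 kb of an end lay 7 of the 47 (14.9%), against 38.2% of all sites. In single libraries the median was 15600 bp in tumor 1 and 14100 bp in tumor 2, against 4110 and 5920 bp for all assigned summits of those libraries, and without Col19a1 it was 14900 bp over the 42 remaining sites. Inside the gene lay 28 of the 47 sites. By class, the median distance was 7392 bp for fibrillar, 24383 bp for basement-membrane and 12750 bp for transmembrane collagens. No collagen site had a normal YAP summit within 1 kb. Few sites of all genes had one (1078 of the 25076 assigned), so with 47 sites this does not set the collagens apart.

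H3K27ac lay near few of the distal sites. A tumor H3K27ac summit lay within 1 kb of 16 of the 47 collagen sites (34.0%), against 56.7% of all sites, and a normal one within 1 kb of 7 (14.9%), against 51.0%. Of the 40 collagen sites farther than 1 kb from a gene end, 9 had tumor H3K27ac (22.5%, against 34.8% of all such sites) and 1 had normal H3K27ac (2.5%, against 30.5%). With the distal summits of tumor 2 alone, the share with tumor H3K27ac was 29.5%, close to the 29.1% of all genes, and that with normal H3K27ac 4.21%, against 22.4%. The 7 sites within 1 kb of an end all had tumor H3K27ac, and 6 of them had normal H3K27ac, against 92.0% and 84.0% of all such sites. Neither library marked 31 of the 47 (66.0%), against 37.2% of all sites, and in tumor 2 alone 67 of 111 summits (60.4%, against 47.8%). Tumor H3K27ac accompanied 5 of 7 fibrillar, 4 of 15 basement-membrane and 3 of 3 transmembrane sites. With tumor 2 summits alone it accompanied 13 of 20 fibrillar (65.0%), 15 of 38 basement-membrane (39.5%) and 4 of 7 transmembrane summits (57.1%), against 46.6% for all genes, so the basement-membrane class was again the lowest of the 3.

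**Figure D4:**
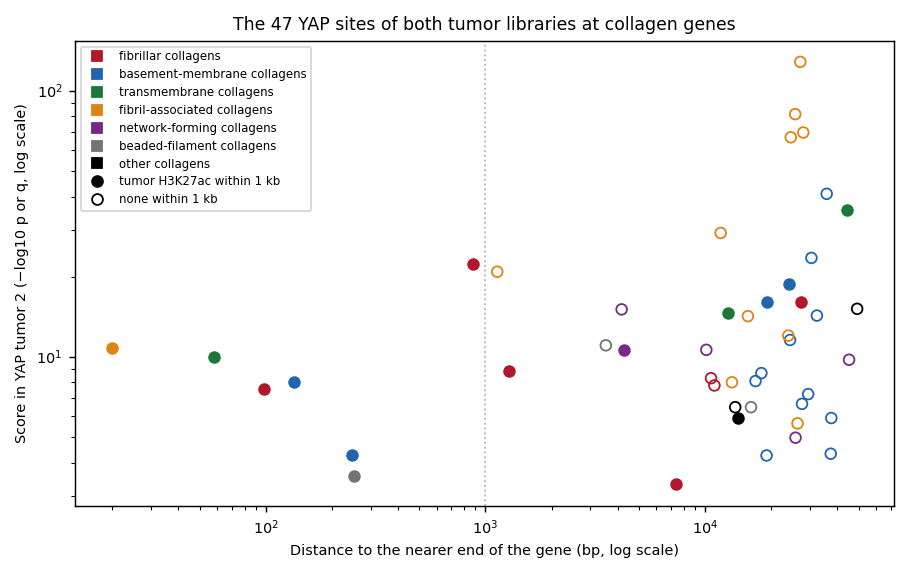
The 47 YAP sites of both tumor libraries at collagen genes, by distance to the nearer end of the gene (x axis, bp, log scale) and score in tumor 2 (y axis, log scale), colored by class; filled points have a tumor H3K27ac summit within 1 kb, open points have none, and the dotted line marks 1 kb. The 7 points left of the line are all filled, and the 5 Col19a1 sites, one at a score of 128, are open.

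At transcript starts YAP was found at few collagen genes. The promoter table of RefSeq (GRCm38.p6), which holds 250 bases before to 50 after each start, matched 35 of the 44 genes with 38 starts. A YAP site of both tumor libraries lay within 600 bp of 7 of the 38 starts (18.4%), against 33.2% of all 32851 starts. A summit of tumor 2 alone lay that near to 13 starts (34.2%, against 42.2%). The 7 starts with a site of both tumor libraries were those of Col4a4, Col5a1, Col27a1, Col16a1, Col23a1 and both starts of Col6a2. The 250 bases upstream of 4 of them are printed because the midpoint of the site falls inside them. The 21 bases centred on that midpoint are in capitals, and the summits themselves lay outside the capitals. In tumor 1 and tumor 2 the summits lay 83 and 200 bp upstream of the start at Col5a1. They lay 137 and 115 bp upstream at Col27a1, and 196 and 170 bp upstream at Col23a1. At Col16a1 they lay 96 bp upstream and 91 bp downstream, the latter outside the printed bases. The Col16a1 midpoint is 3 bp from the start, so the run of capitals ends at the last base.

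Col5a1 (chr2:27886175-27886424, plus strand): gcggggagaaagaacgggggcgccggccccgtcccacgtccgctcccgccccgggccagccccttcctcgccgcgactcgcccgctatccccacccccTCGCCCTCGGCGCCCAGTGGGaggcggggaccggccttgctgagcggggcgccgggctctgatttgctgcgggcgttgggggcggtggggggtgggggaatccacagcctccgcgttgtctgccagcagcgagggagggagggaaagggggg
Col27a1 (chr4:63215162-63215411, plus strand): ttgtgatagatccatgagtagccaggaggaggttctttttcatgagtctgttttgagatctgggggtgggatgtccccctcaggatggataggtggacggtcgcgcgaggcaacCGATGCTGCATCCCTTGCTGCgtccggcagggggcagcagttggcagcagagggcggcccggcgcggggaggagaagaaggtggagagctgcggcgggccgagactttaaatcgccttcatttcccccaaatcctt
Col16a1 (chr4:130047590-130047839, plus strand): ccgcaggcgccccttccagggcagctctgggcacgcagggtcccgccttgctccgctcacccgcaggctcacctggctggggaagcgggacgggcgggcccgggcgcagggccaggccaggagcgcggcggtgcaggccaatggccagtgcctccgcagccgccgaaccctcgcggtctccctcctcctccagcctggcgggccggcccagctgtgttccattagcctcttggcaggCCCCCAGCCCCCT
Col23a1 (chr11:51289670-51289919, plus strand): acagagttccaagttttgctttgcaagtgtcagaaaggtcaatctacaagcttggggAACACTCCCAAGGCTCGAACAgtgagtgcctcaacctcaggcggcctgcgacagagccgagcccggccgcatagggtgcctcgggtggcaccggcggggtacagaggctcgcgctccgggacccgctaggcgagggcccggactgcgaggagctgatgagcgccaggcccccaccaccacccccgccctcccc

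These windows are rich in G and C, at 76.4% in Col5a1, 59.6% in Col27a1, 75.6% in Col16a1 and 66.0% in Col23a1, and hold 28, 15, 21 and 18 CpG pairs. None of the 4 holds GGAATG, the core of the sequence that TEAD factors recognise. Over the 300-base windows, read on both strands, GGAATG was present at 5 of 38 collagen starts (13.2%, against 14.7% of all starts), at Col3a1, Col4a6, Col18a1, Col20a1 and Col6a2. TGANTCA, the AP-1 sequence, was present at 1 (2.63%, against 7.81%), that of Col6a1, and GGGCGG, the core of the GC box bound by Sp1, at 23 (60.5%, against 35.7%). These 3 sequences cannot overlap in full, a match is no proof of binding, and the summit sequences away from starts were not analysed here. Col6a2 and the inner start of Col18a1 are printed with their GGAATG words in capitals (CATTCC on the opposite strand), since a YAP site lies 25 bp downstream of the start in Col6a2 and 17014 bp upstream of it in Col18a1.

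Col6a2 (chr10:76623405-76623654, minus strand): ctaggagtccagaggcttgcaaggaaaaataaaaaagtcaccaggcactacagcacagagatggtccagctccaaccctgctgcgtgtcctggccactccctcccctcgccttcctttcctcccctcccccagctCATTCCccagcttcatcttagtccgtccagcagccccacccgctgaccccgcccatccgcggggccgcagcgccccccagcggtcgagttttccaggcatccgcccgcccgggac
Col18a1 (chr10:77113706-77113955, minus strand): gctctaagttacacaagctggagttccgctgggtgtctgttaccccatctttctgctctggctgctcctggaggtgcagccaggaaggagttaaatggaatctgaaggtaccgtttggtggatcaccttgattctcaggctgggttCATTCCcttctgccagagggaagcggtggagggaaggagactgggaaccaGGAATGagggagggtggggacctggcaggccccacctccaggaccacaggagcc

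In the Col6a2 window the word starts 115 bases before the transcript start, and in the Col18a1 window 104 and 54 bases before it. The site at Col6a2 was weak, with scores of 2.76 in tumor 1 and 3.57 in tumor 2.

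H3K27ac at collagen genes was then compared between the tumor and the normal library. With 1 library per group there is no replicate check and no test. The full lists held 191 tumor and 20 normal summits at collagen genes, and the tumor list shortened to the 22574 best scores held 25. A log2 ratio of (tumor summits + 1) over (normal summits + 1) was called at 1 or above and at -1 or below. At equal length, 8 of the 44 collagen genes had more summits in tumor, against 12.0% of all genes, and 5 had fewer, against 9.53%. The median log2 ratio was 0.0 for the collagens and 0.0 for all genes, and 22 collagen genes had no summit in either list.

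Genes with more H3K27ac summits in tumor at equal length came from every class. Col27a1 had 2 summits in tumor and 0 in normal, 208 and 1611 bp inside the gene, with scores of 25.3 and 52.5. Col12a1, a fibril-associated collagen of tendon and tumor stroma, Col8a1 and Col6a6 also had 2 in tumor and 0 in normal. Col4a3, Col23a1, Col10a1 and Col26a1 each had 1 in tumor and 0 in normal, a difference of a single summit. A normal summit did lie within 1 kb of an end of Col4a3 and of Col23a1, but it was assigned to another gene. The tumor summits of Col12a1 scored 72.1 and 28.4 and lay 19611 and 2714 bp inside the gene, and those of Col8a1 lay 12 and 596 bp outside its start.

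The genes with fewer summits in tumor at equal length were mostly fibrillar: Col1a1, Col3a1, Col5a2 and Col24a1, with Col4a1 as the fifth. Col1a1 had 1 summit in tumor and 3 in normal, Col4a1 had 0 in tumor and 2 in normal, and the other 3 genes had 0 in tumor and 1 in normal. For Col4a1 this rests on the assignment. A tumor summit of the shortened list, scored 72.2, lay 254 bp from its transcript start and was assigned to Col4a2, whose start was nearer. The 8 normal summits at these genes ranked between 12387 and 19506 of 22574, so they were among the weaker of their list. In the full tumor list Col1a1 had 9 summits, Col4a1 8, Col24a1 2, Col3a1 1 and Col5a2 0. With the full lists, Col5a2, a chain of type V collagen, was the 1 collagen gene with fewer summits in tumor (0 in tumor and 1 in normal, against 2.45% of all genes), while 33 had more, against 43.2%, and the median log2 ratio was 1.79 for collagens and 0.58 for all genes. At a score of at least 10 in both lists, 33 had more, against 39.5% of all genes, and 0 had fewer, against 1.65%.

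**Figure D5:**
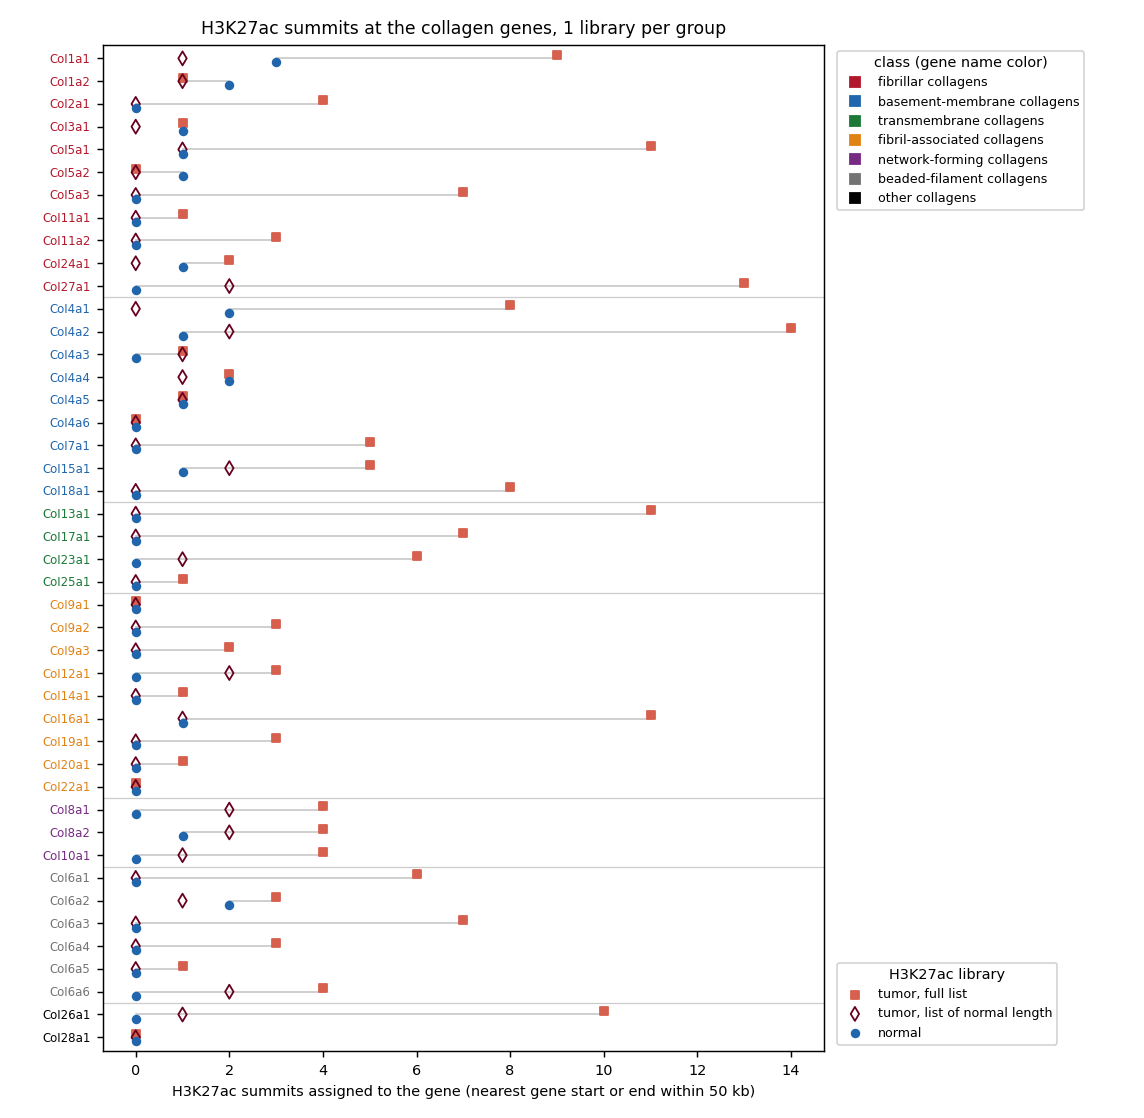
Number of H3K27ac summits assigned to each collagen gene (x axis) in the tumor library, full list (squares), in the tumor list shortened to the length of the normal list (diamonds) and in the normal library (circles), 1 library per group; gene names are colored by class. In the full list 33 genes have more tumor than normal summits by the call used, at equal length 8 do.

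Summed by class, fibrillar collagens had 52 tumor summits in the full list and 5 at equal length, against 9 in normal. Basement-membrane collagens had 44 and 7, against 7 in normal, and transmembrane collagens 25 and 1, against 0 in normal. These are assigned summits, and the normal summit within 1 kb of an end of Col23a1 was assigned to another gene. Col13a1 had 11 tumor summits in the full list and Col17a1 had 7, and neither had any at equal length or in normal. A tumor summit without any normal summit, in the full lists, was present at 26 of 44 collagen genes (59.1%), against 28.8% of all genes. The share was 57.7% of the collagen genes over 100 kb, against 33.7% of all such genes, and 61.1% of the shorter ones, against 28.2%. In the full lists, any H3K27ac summit was assigned to 39 collagen genes in tumor (88.6%, against 81.4% of all genes) and to 14 in normal (31.8%, against 54.3%). In the tumor list shortened to the normal length the number was 18 (40.9%, against 59.9%), so the collagen share then lay below that of all genes in both libraries. Collagen H3K27ac summits had low scores within their lists: their median percentile was 29.7 in tumor and 31.9 in normal, against 49.6 and 53.2 for the summits of all genes.

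Near gene ends the tumor list covered more collagen genes than the normal list. Within 1 kb of an end, 32 collagen genes had H3K27ac in tumor (72.7%, against 64.5% of all genes) and 15 in normal (34.1%, against 48.0%), and 19 had it in tumor alone, against 18.1% of all genes. In the tumor list shortened to the normal length the number was 14 (31.8%, against 49.9%), so at equal length the tumor and normal numbers differed by 1 gene. At transcript starts, with the full tumor list, both libraries had H3K27ac within 600 bp of 11 of the 38 collagen starts (28.9%, against 33.3% of all starts), the tumor library alone of 17 (44.7%, against 13.2%) and the normal library alone of 1 (2.63%, against 2.14%). With lists of equal length these numbers were 10 starts in both (26.3%, against 31.6%), 4 in tumor alone (10.5%, against 4.34%) and 2 in normal alone (5.26%, against 3.83%), and the 4 were those of Col23a1, Col27a1, Col8a1 and Col8a2. In the full lists, the starts with H3K27ac in both were those of Col4a1, Col4a2, Col4a4, Col4a5, Col15a1, Col1a2, Col5a1, Col24a1, Col16a1 and both of Col6a2, so 5 of 9 basement-membrane starts, 3 of 8 fibrillar starts and 0 of 4 transmembrane starts were among them. The tumor library alone covered 4 fibrillar starts (Col27a1, Col5a3, Col11a1 and Col11a2), 3 basement-membrane starts (Col7a1 and both of Col18a1) and 3 transmembrane starts (Col13a1, Col23a1 and Col25a1). Col3a1 was the start with normal H3K27ac alone, 240 bp inside the gene, and its nearest tumor summit lay 18268 bp away.

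Where the tumor library alone marked a collagen start in the full lists, its summit sat close to the start. The median distance was 84 bp over these 17 starts, against 188 bp for all such starts, and 293 bp over the 11 starts marked in both, against 213 bp. Within 20 bp of the start lay 6 of the 17 (35.3%), against 5.67% of all such starts: Col13a1 at 2 bp, Col7a1 at 4 bp, Col6a5 at 9 bp, Col6a6 at 11 bp, Col8a1 at 12 bp and Col11a1 at 15 bp. These 6 summits scored 5.76 to 25.6, and the tumor summits at the 11 shared starts 16.5 to 72.2.

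Genes that serve collagen were looked up from lists. Of 22 genes for collagen synthesis and folding, 18 had a YAP site of both tumor libraries (81.8%, against 60.0% of all genes), and 21 had a summit in tumor 2 alone (95.5%, against 70.8%). P4ha2, a prolyl hydroxylase subunit, had 5 sites, P4ha1, its sister subunit, 3, Mia3, a cargo receptor for procollagen export, 3, and Sparc, a collagen-binding matricellular protein, 3. P4ha2 was the 1 gene of that list with a site of both normal YAP libraries. Of 16 genes for processing and crosslinking, 10 had a site (62.5%) and 15 a summit in tumor 2 alone (93.8%), led by Adamts14 and Adamts2, procollagen N-proteinases, with 2 sites each. Of 12 collagen receptors 7 had one (58.3%), with 5 sites each at Ddr1, a collagen receptor kinase, and Adgrg1, an adhesion receptor that binds type III collagen, and of 13 genes for collagen breakdown and its inhibitors 8 had one (61.5%), with 3 at Timp3. In tumor 2 alone the numbers with a summit were 10 receptors (83.3%) and 8 breakdown genes (61.5%).

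H3K27ac at these lists was mixed. At equal length, synthesis genes had 29 summits in tumor and 36 in normal, and 3 of the 22 were higher and 3 lower, against 12.0% and 9.53% of all genes; Plod2, a lysyl hydroxylase, had 4 in tumor and 1 in normal, and Sparc had 1 in tumor and 5 in normal. Processing and crosslinking genes had 13 in tumor and 9 in normal, with 5 of 16 higher and 1 lower, the lower one being Loxl1 with 0 in tumor and 2 in normal. Receptors had 14 in tumor and 14 in normal, with 2 of 12 higher and 2 lower, and breakdown genes 9 in tumor and 11 in normal, with 2 of 13 higher and 1 lower.

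Markers of cells other than epithelium were looked up beside the collagens, since fibroblasts make most fibrillar collagen. Of 12 fibroblast and mural markers, 6 carried H3K27ac within 1 kb of an end in tumor (full list, against 64.5% of all genes), 1 in tumor at equal length (49.9%) and 3 in normal (48.0%), so the order of tumor and normal turns with list length. Their summits summed to 29 in tumor, 2 in tumor at equal length and 7 in normal. Lum and Rgs5 had no summit in either library, Acta2 and Dpt had none in tumor, and 8 of the 12 had none in normal. Cspg4 had 7 in tumor, 0 at equal length and 3 in normal. Of 6 endothelial markers 1 had H3K27ac within 1 kb of an end in each library, with summit sums of 23 in tumor, 4 at equal length and 7 in normal. Every one of the 6 had a summit in the full tumor list, and 3 had none in normal. Pecam1 had 9 in tumor, 1 at equal length and 5 in normal, and Cdh5 had none at equal length or in normal. Of 6 immune markers 1 had H3K27ac within 1 kb of an end in each library, with summit sums of 13 in tumor, 6 at equal length and 5 in normal. Spi1 had 5 in tumor, 3 at equal length and 2 in normal, and Cd3e had no summit in either library. Epithelial markers had 24 summits in tumor, 12 at equal length and 21 in normal, and the 10 gastric corpus markers 26 in tumor, 8 at equal length and 19 in normal. A YAP site of both tumor libraries lay at 6 of the 12 fibroblast and mural markers (50.0%), against 60.0% of all genes. It lay at 4 of the 6 endothelial (66.7%), 3 of the 6 immune (50.0%), 6 of the 6 epithelial and 7 of the 10 gastric corpus markers (70.0%). In tumor 2 alone a summit lay at 9 fibroblast and mural, 6 endothelial, 4 immune, 6 epithelial and 8 gastric corpus markers, against 70.8% of all genes. The part of other cells in the collagen values was not tested, and in bulk lists fewer cells of a type and less signal per cell cannot be told apart.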

How the data were processed

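The data are 6 deposited lists of peak summits from chromatin immunoprecipitation sequencing of mouse gastric corpus epithelium, read as 50 bp pairs per the labels' protocols. Bowtie2, MACS2 and GRCm38 (mm10) are named in the submitters' processing notes, while their versions, thresholds and any control library are not given. Each deposited summit has a score made by the authors, −log10 of either p or q (the files do not say which), used here to rank or filter within a list; a score minimum applied to 2 lists alike was an alternative only, since equal scores need not mean equal signal. Depth is unknown.

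Main-chromosome summits (1 to 19, X, Y) were assigned to the protein-coding gene (RefSeq table, same build) with the nearest start or end within 50 kb. Strand and transcript starts came from the RefSeq promoter table, which held 35 of the 44 genes. Col21a1, on the list of fibril-associated collagens, was not in the gene table. Per-gene ratios used a pseudocount of 1 summit. The 4 YAP libraries were compared by an exact two-sided permutation test. H3K27ac, with 1 library per group, and the counts of genes and sites were described beside all genes with no test. Wilson 95% intervals cover counting error only. Python 3.11.15, numpy 2.4.6, pandas 2.3.3, scipy 1.17.1 and matplotlib 3.10.9 were used. The assignment step was checked on sampled tumor 2 summits against a direct search over all genes, and the pairing step on simulated positions.

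All collagen genes could be named. Of each accompanying list, up to 4 genes with most sites of both tumor libraries and up to 3 with the largest H3K27ac ratio were named; markers without a summit, Cdh5, Lum, Rgs5, Dpt and Cd3e among them, were named after their values were seen. The collagen genes and all lists were chosen with earlier results of these data known. Alternatives changed the assignment distance, the score minimum, the pairing distance, list length, merging of summits, the pseudocount, the libraries used and, after the data were seen, the inclusion of Col19a1, single tumor libraries and equal list length at starts.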

Additional observations from a re-analysis of the deposited data

How the results depend on the processing

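The log2 difference in YAP summits at collagen genes, 5.54 for tumor over normal, turned to -0.32 with groups taken from the words in the peak names, and to -0.29 with lists of equal length and without Col19a1, an alternative added once the data had been seen. It ranged from 4.75 to 6.33 when each library was left out in turn. With the replicate number as a block it was 5.54 (exact permutation p = 0.5, the smallest that 2 pairs allow), and the numbers are not said to pair animals or batches.

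The count of 25 collagen genes with a YAP site of both tumor libraries was 12 with gene ends within 10 kb (27.3%, against 54.5% of all genes) and 9 at a score of at least 10 (20.5%, against 39.6%). Under those settings the basement-membrane count was 2 and 2 in place of 6, and the fibrillar count 3 and 1 in place of 5. The fibrillar count was also 3 at a score of at least 5, and the transmembrane count was 1 in place of 2 within 10 kb. With single tumor libraries the counts ranged from 27 to 33 for all collagens, 6 to 7 for basement-membrane, 5 to 6 for fibrillar and 2 to 3 for transmembrane collagens.

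The 8 collagen genes with more H3K27ac summits in tumor were 13 within 100 kb (against 13.1% of all genes), 33 with full lists (43.2%), 33 at a score of at least 10 (39.5%) and 5 after merging summits closer than 1 kb (9.11%). The 5 with fewer were 1 with full lists (2.45%), 0 at a score of at least 10 (1.65%) and 6 after merging (8.51%), where more genes were lower than higher. With full lists and at a score of at least 10 the median log2 ratio was 1.79 and 1.0 in place of 0.0. The unshortened tumor list has more summits to assign by construction. Summit lists give no depth, so the absence of a summit at a collagen gene is not evidence that YAP or H3K27ac is absent there.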
